A study of Arabidopsis thaliana with 4 samples.

Results

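WRKY53, CML23, ATL63, AT3G10930 and AT1G12630 are 5 Arabidopsis thaliana genes grouped here as early stimulus-response genes. They were taken from 13286 genes that had a probe set of their own on the array, among 22746 probe sets without controls. Each was read by 1 probe set (WRKY53 is locus AT4G23810, CML23 AT1G66400 and ATL63 AT5G58580). They were picked because their signals were higher in seedlings that overexpress the microRNA miR396 than in wild type, so the difference between the genotypes is given as a description, with no test.

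Total RNA of whole Col-0 seedlings, 10 days old and grown on Murashige-Skoog salts in long days at 23 °C, was hybridised to 4 Affymetrix arrays. The wild-type arrays are labelled 1b and 2, and the arrays of 35S:miR396 plants 1 and 2. In 35S:miR396 plants the promoter of the cauliflower mosaic virus 35S transcript, active in most plant tissues, drives miR396, and no other allele or treatment is named for either genotype. The labels do not say how many plants or transgenic lines made up a sample, or whether replicates came from separate cultures, so the p-values cover no more than the differences among these 4 samples, and those could be technical. Overexpression was not checked, as 0 of the 7 GROWTH-REGULATING FACTOR genes with a known miR396 site was paired with a probe set in the annotation used here. RNA of whole seedlings cannot tell fewer cells of a type from less RNA per cell.

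Plants change the transcription of many genes within minutes of touch, wounding, cold or contact with a pathogen. Calcium rises in the cytosol, calmodulin-like proteins sense it, and transcription factors of the WRKY and AP2/ERF families, together with ubiquitin ligases that remove regulators, set off and then damp the response. Transcripts of this kind are typically short-lived. WRKY53 is a WRKY transcription factor known for its part in leaf senescence and defence. CML23 is a calmodulin-like calcium sensor, a close relative of the touch-induced CML24. ATL63 is one of the ATL proteins, RING-finger ubiquitin ligases, and AT1G12630 is assigned to the AP2/ERF family of transcription factors. The RefSeq table used here gives AT3G10930 no name beyond its locus.

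The arrays differed in overall brightness and in how they grouped. Median signals lay between 60.5 and 81.3, so each signal was divided by the median of its array, and log2 ratios below are on that centred scale. Leaf transcripts were bright on all arrays, with 4 of 5 leaf markers measured and a summed signal of 37377 to 43203. The root marker PYK10, a root beta-glucosidase, lay between 1195 and 1497, and the single measured gene of the pollen list between 1.3 and 3.3. No flower or seed marker had a probe set of its own. The ratio of 3' to 5' control probe sets was 1.57 to 1.76 for GAPDH and 3.02 to 3.29 for ubiquitin, while for actin it was 10.3 and 12.0 on the arrays numbered 2 and 13.5 and 13.4 on those numbered 1. Over the 15922 probe sets tested, the SD of log2 ratios between arrays of the same number was 0.36 and 0.35, and between arrays of the same genotype 0.58 and 0.57. Arrays thus resembled each other by number more than by genotype, and genotype ratios are given within each number. The labels do not state what the number stands for, nor that 1b pairs with 1.

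WRKY53 gave wild-type signals of 13.0 on array 1b and 45.2 on array 2, while the 35S:miR396 signals were 74.5 on array 1 and 66.8 on array 2. Relative to the array medians these were 0.179, 0.634, 1.23 and 0.822. Both 35S:miR396 arrays were above both wild-type arrays, but wild type 1b stood far below the other 3. Set against wild type, 35S:miR396 had a log2 ratio of 2.79 in number 1 and 0.37 in number 2, or 6.90-fold and 1.30-fold. The wild type 1b signal exceeded only 24.9% of the probe sets on its array, so the 6.90-fold is set against a low signal and is imprecise. Wild type 2 was itself 3.55-fold above wild type 1b, which is more than the mean genotype difference of 2.99-fold. Number 1 gave 88.2% of the summed log2 ratios of this gene.

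For CML23 the wild-type signals were 29.2 (1b) and 92.5 (2), and those of 35S:miR396 were 98.7 (1) and 174 (2). As multiples of the array medians the values were 0.401, 1.30, 1.63 and 2.14. The groups did not overlap, and wild type 2 lay closer to 35S:miR396 1 than to wild type 1b. The log2 ratio was 2.02 in number 1 and 0.72 in number 2. In fold these were 4.07 and 1.65. Wild type 2 was 3.23-fold above wild type 1b, while 35S:miR396 2 was 1.31-fold above 35S:miR396 1. The annotation used here pairs CML24 with no single probe set, so the touch-induced relative could not be set beside it.

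AT3G10930 read 27.0 and 76.2 on wild type 1b and 2, and 88.1 and 111 on the 35S:miR396 arrays 1 and 2. The relative signals were 0.371 and 1.07 in wild type against 1.46 and 1.37. On 3 arrays it lay above the array median, and on wild type 1b well below it. The log2 ratio was 1.97 in number 1 and 0.36 in number 2, and number 1 gave 84.7% of their sum. The 35S:miR396 arrays differed by only 0.09 on the log2 scale, against 1.53 between the wild-type arrays.

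ATL63 was dim on all arrays: it read 7.9 and 17.5 on wild type 1b and 2, and 33.2 and 40.3 on 35S:miR396 1 and 2. Relative to the array medians it stood at 0.109, 0.245, 0.549 and 0.496. Wild type 1b was lowest again, and the groups stood further apart than for the genes above, with the lower 35S:miR396 array 2.02-fold above the higher wild-type array. The log2 ratio was 2.34 in number 1 and 1.01 in number 2. On the deposited signals 35S:miR396 2 was the higher of its pair and after centring 35S:miR396 1 was, by 0.15 on the log2 scale.

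AT1G12630 had the genotype ratios that differed least between the numbers. It read 8.7 and 13.1 on wild type 1b and 2, against 30.6 and 49.7 on 35S:miR396 1 and 2, and the relative signals were 0.119, 0.184, 0.506 and 0.611. Both wild-type arrays were low and both 35S:miR396 arrays were higher, with the closest pair 2.75-fold apart. The log2 ratio was 2.08 in number 1 and 1.73 in number 2, and number 1 gave 54.5% of their sum. Wild type 2 was 1.54-fold above wild type 1b. Both wild-type signals were under 15.8, the lowest mean signal kept for testing, and they exceeded 19.6% and 25.2% of the probe sets on their arrays, so its fold is set against low signals and is imprecise.

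**Figure D1:**
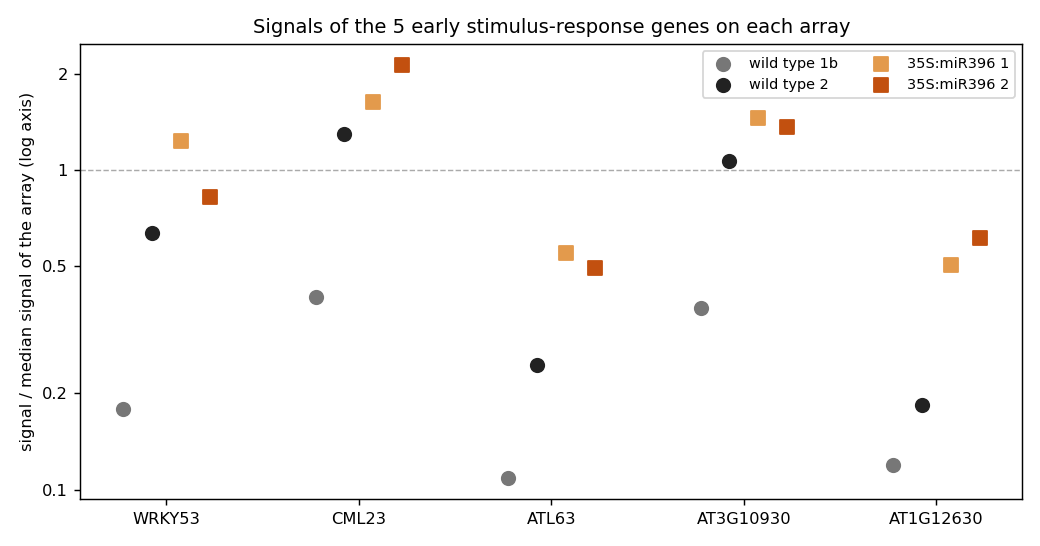
Signal of each of the 5 genes on each array, divided by the median signal of that array (log axis; circles, wild type; squares, 35S:miR396; each point is 1 array). Wild type 1b was lowest for 5 of 5 genes, from 0.109 for ATL63 to 0.401 for CML23.

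In all 5 genes wild type 1b had the lowest centred signal and wild type 2 the second lowest. Of all tested probe sets, 23.5% had their lowest value on wild type 1b, and 9.18% had both 35S:miR396 arrays above both wild-type arrays. The choice of the genes fixed this separation, so their count of 5 of 5 is not read against that share. All 5 were at least 2-fold higher in number 1, where 1.16% of probe sets were. In number 2 this held for 2 of 5, ATL63 and AT1G12630, where 1.04% of probe sets were. Among the dimmest probe sets, the level of those 2 genes, the shares were 6.34% and 6.65%. The genes were picked on these ratios, so the counts and the ranks that follow are a description and are not read against the shares. WRKY53 had the second largest ratio of 15922 in number 1 and ranked 1361 in number 2. AT3G10930 went from rank 12 to rank 1471 and CML23 from 9 to 371. ATL63 went from rank 4 to rank 160 and AT1G12630 from 7 to 31.

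**Figure D2:**
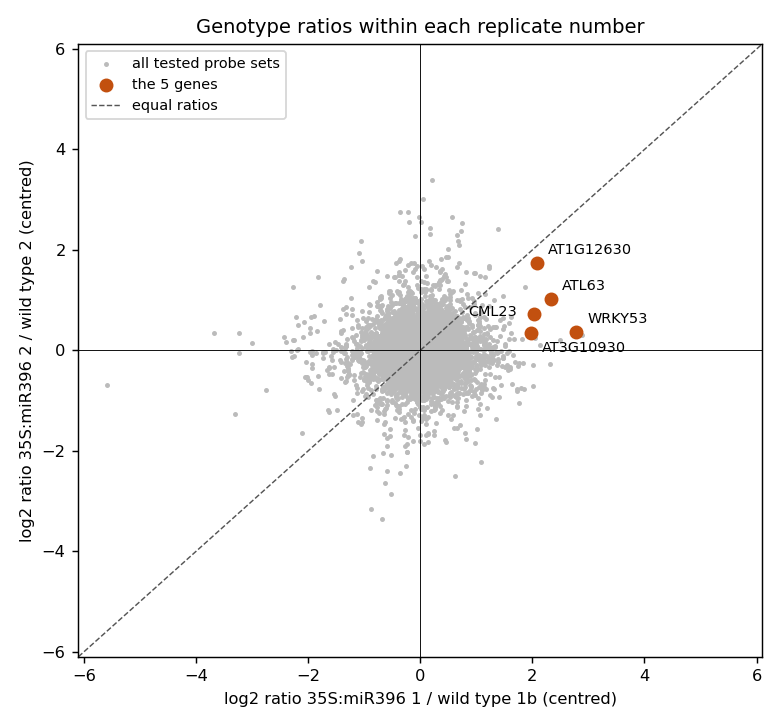
Genotype log2 ratio (35S:miR396 over wild type), number 1 on the horizontal and number 2 on the vertical axis, for the 15922 tested probe sets (grey) and the 5 genes (orange), after centring; the dashed line marks equal ratios. All 5 genes lie to the right of that line, with WRKY53 at 2.79 and 0.37 and AT1G12630 nearest to it at 2.08 and 1.73.

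The same unevenness can be read from the arrays within a genotype. This rearranges the same signals and is not a second observation. Wild type 2 was at least 2-fold above wild type 1b in 4 of 5 genes, the exception being AT1G12630, against 4.2% of tested probe sets. Among probe sets of like mean level the share was 8.47% for ATL63, 7.22% for WRKY53, 5.40% for AT3G10930 and 3.33% for CML23. No gene of the 5 was at least 2-fold higher on 35S:miR396 2 than on 35S:miR396 1, where 3.96% of probe sets were. The log2 difference between the wild-type arrays ran from 0.62 for AT1G12630 to 1.83 for WRKY53. Between the 35S:miR396 arrays it ran from -0.58 for WRKY53 to 0.39 for CML23. The low signals on wild type 1b formed part of what the genes were picked on, so these counts are a description as well.

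Ratios of dim probe sets were the least precise. The tested probe sets were put into 10 bins of nearly equal size by mean level. In bin 1, the dimmest, which holds ATL63 and AT1G12630, log2 ratios within a number had an SD of 0.70 in number 1 and 0.72 in number 2, and 6.34% and 6.65% were 2-fold higher in 35S:miR396. In bin 2, which holds WRKY53, the SDs were 0.50 and 0.49. In bin 3, with AT3G10930, they were 0.36 in each number, and in bin 4, with CML23, 0.32 and 0.30. These SDs describe the precision at each level. The ratios of the 5 genes are not tested against them, since the genes were picked on those ratios. ATL63 and AT1G12630, with wild-type means of 12.7 and 10.9, passed the filter at a mean level of 15.8 through their 35S:miR396 signals.

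**Figure D3:**
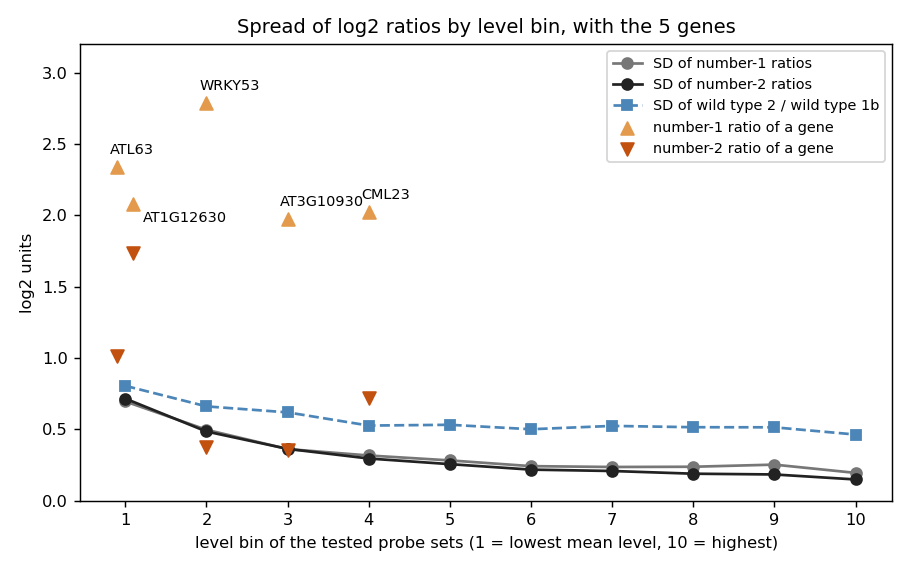
SD of log2 ratios over the tested probe sets in each of 10 bins of mean level (lines; bin 1 is the dimmest), with the number-1 (upward triangles) and number-2 (downward triangles) ratios of the 5 genes at their level, all in log2 units. The lines fall from bin 1 (0.70 and 0.72 within the numbers) to bin 4 (0.32 and 0.30), and the 5 genes, picked on these ratios, all lie in bins 1 to 4.

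Leaving out wild type 1b lowered all 5 mean differences, and 4 of them by over 1.5 times. WRKY53 went from a mean log2 difference of 1.58 to 0.67, CML23 from 1.37 to 0.53, AT3G10930 from 1.16 to 0.40 and ATL63 from 1.68 to 1.09. AT1G12630 went from 1.91 to 1.60. Leaving out wild type 2 instead raised them, to 2.49 for WRKY53, 2.22 for CML23, 1.93 for AT3G10930, 2.26 for ATL63 and 2.22 for AT1G12630, and for WRKY53, CML23 and AT3G10930 this was a change of over 1.5 times too. The sign stayed positive for all 5 genes with any 1 array left out. This was fixed by their choice, as both 35S:miR396 arrays lay above both wild-type arrays, and is no sign of stability. The labels do not mark wild type 1b as faulty, and which wild-type array is closer to the usual level was not tested.

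**Figure D4:**
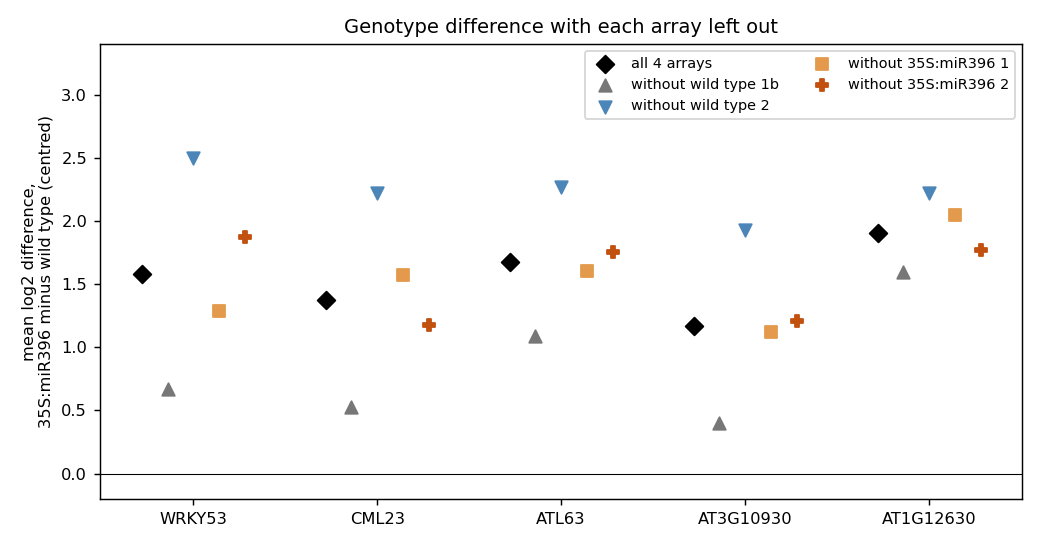
Mean log2 difference between 35S:miR396 and wild type after centring, with all 4 arrays and with each array left out, for the 5 genes. Values without wild type 1b are the lowest for each gene, from 0.40 for AT3G10930 to 1.60 for AT1G12630.

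Across all probe sets, limma made no call between the genotypes at an adjusted p of 0.05. Of 15922 probe sets, 0 were higher and 0 lower (0.0% called), with 103 under an unadjusted p of 0.05. A fit with the replicate number as a block called 18 (5 higher and 13 lower, none of them among the 5 genes) and put 902 under an unadjusted p of 0.05, but no label says that the numbers pair the arrays. Between the numbers, with the genotype as a term, 1701 were higher on the arrays numbered 2 (10.7%) and 1852 lower (11.6%). On the signals as deposited 690 were higher and 198 lower, and the median log2 difference of all tested probe sets was 0.16, against -0.04 after centring. Without a variance trend 375 were called. The 3' to 5' ratio of actin was lower on the arrays numbered 2, as given above, and its part in these differences was not tested.

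Of other early stimulus genes, STZ, ORA47, CML38 and WRKY6 were higher on the arrays numbered 2 and WRKY22 lower. Of a list of 74 touch-, wound- and pathogen-induced genes, 13 had a probe set of their own and 10 were tested. Between the numbers 4 of the 10 were called higher, where 10.7% of all probe sets were, and 1 lower, which is near the 11.6% of all (limma, adjusted p at most 0.05). Between the genotypes 0 of 10 were called, as were 0.0% of all probe sets, so this count says nothing particular to the list. The list's median log2 difference between the numbers was 0.39, against -0.04 over all tested probe sets. Between the genotypes the median was 0.09, against 0.00.

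STZ, a zinc-finger repressor induced by salt, cold and wounding, read 332 and 1486 on wild type 1b and 2, and 660 and 1712 on 35S:miR396 1 and 2. Like the 5 genes it was lowest on wild type 1b, with a genotype log2 ratio of 1.26 in number 1 and 0.01 in number 2. It differed from them in that 35S:miR396 1 also stood below both arrays numbered 2. The log2 difference of STZ between the numbers was 1.57 ± 0.40 (half-width of the 95% interval, limma adjusted p = 1.42e-05). By genotype it was 2.19 in wild type and 0.95 in 35S:miR396, both outside that interval, so the half-width understates the spread. The call was lost without a variance trend (limma adjusted p = 0.0909) and with robust fitting (limma adjusted p = 0.268). ORA47, an AP2/ERF factor of jasmonate synthesis, read 215 and 586 against 188 and 709 on the same arrays. Its genotype log2 ratios were 0.07 and 0.09, and its difference between the numbers was 1.48 ± 0.25 (limma adjusted p = 2.11e-07). That difference was 1.48 in wild type and 1.49 in 35S:miR396.

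CML38, a wound-induced relative of CML23, read 302 and 497 on the wild-type arrays and 341 and 552 on those of 35S:miR396, a log2 difference between the numbers of 0.51 (limma adjusted p = 0.00909). WRKY6, a factor of senescence and defence like WRKY53, read 42.0 and 70.5 against 47.0 and 102 (0.74, limma adjusted p = 0.0268). WRKY22, which acts in defence signalling, read 272 and 216 against 257 and 210 (-0.51, limma adjusted p = 0.0148). These 3 calls were lost on the signals as deposited, where the log2 differences were 0.71 for CML38, 0.93 for WRKY6 and -0.31 for WRKY22. The 5 other tested genes of the list were CML41, CML42 and the ubiquitin ligases PUB22, PUB23 and PUB24, and they were not called between the numbers.

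Low values on wild type 1b were frequent in the list as in the 5 genes, but partly went with the number. The list had its lowest centred signal there in 6 of 10 genes, against 23.5% of all tested probe sets. Of these, STZ, ORA47, WRKY6 and CML38 were also higher on 35S:miR396 2 than on 35S:miR396 1, by log2 differences of 0.95, 1.49, 0.70 and 0.27. For CML42 and PUB24 that difference was -0.42 and -0.37, and in the 5 genes it ran from -0.58 to 0.39. In number 1 the genotype ratio was above 0 in 8 of 10 genes, with a median of 0.39, where 52.1% of all probe sets were above 0. In number 2 it was above 0 in 3 of 10, with a median of -0.20, where 45.6% were. In none of the 10 were both 35S:miR396 arrays above both wild-type arrays. Of all tested probe sets 9.18% showed this, so the count is near that share, and the 5 picked genes show it by choice. A difference in how seedlings were handled or harvested was not tested, as the labels give no such record.

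**Figure D5:**
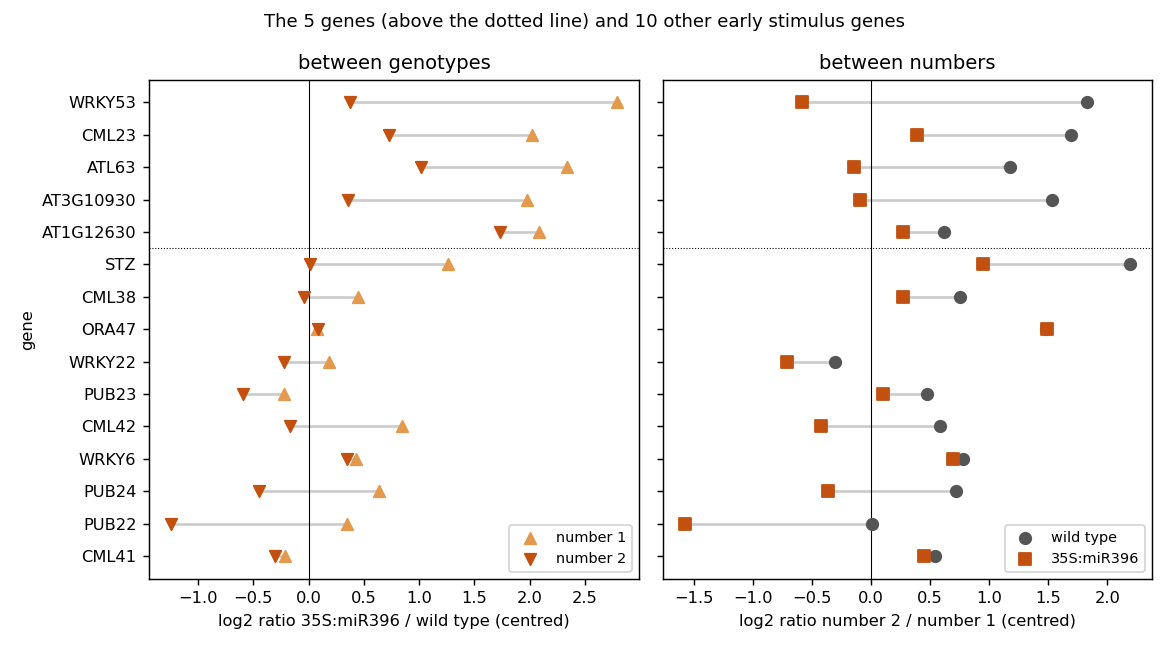
Centred log2 ratios between the genotypes within each number (left; 35S:miR396 over wild type) and between the numbers within each genotype (right; number 2 over number 1) for the 5 genes and the 10 tested genes of the early stimulus list, ordered by level; the symbols of ORA47 nearly coincide. On the left the list genes lie around 0 in number 2 (median -0.20), and on the right STZ reaches 2.19 in wild type, beyond the 1.83 of WRKY53.

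The families of the named genes were thinly covered, and their genotype differences are given as values, since 0.0% of all probe sets were called. In the WRKY family, 5 genes other than WRKY53 were tested of 72 listed, with a median genotype log2 difference of -0.01. Besides WRKY6 and WRKY22 these were ZAP1, WRKY20 and WRKY47, with genotype log2 differences of -0.01, -0.15 and 0.01. In the calmodulin-like family, 4 genes other than CML23 were tested of 14 listed: CML38 at 0.20, CML42 at 0.34, CML30 at -0.46 and CML41 at -0.26. CML42 read 129 and 189 on wild type 1b and 2 and 191 and 192 on 35S:miR396 1 and 2, so it too was lowest on wild type 1b, with a log2 ratio of 0.84 in number 1 and -0.17 in number 2.

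The ATL family had 3 tested genes besides ATL63, of 16 listed. ATL8 read 255 and 50.2 on wild type 1b and 2 and 204 and 112 on 35S:miR396 1 and 2. It was lower on the arrays numbered 2 by a log2 difference of -1.80 ± 0.43 (half-width of the 95% interval, limma adjusted p = 8.03e-06). By genotype the difference was -2.31 in wild type and -1.29 in 35S:miR396, both outside that interval, so the half-width understates the spread. The call was lost without a variance trend (limma adjusted p = 0.0661). ATL5 and ATL4H had genotype log2 differences of -0.17 and -0.18 and were not called. In the AP2/ERF family 6 genes were tested of 95 listed by name, with a median genotype log2 difference of 0.14. SNZ, a repressor of flowering, read 39.5 and 96.1 against 30.9 and 71.1 and was higher on the arrays numbered 2 (1.04, limma adjusted p = 0.00640). SMZ, its close relative, had a genotype log2 difference of 0.37 and LEP one of -0.17, and neither was called in either comparison. Besides ORA47, given above, the remaining tested genes were tny and TINY2, both dim. Their genotype log2 differences were 0.61 and 0.20, and they were not called in either comparison.

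Senescence and salicylic acid genes, the programme in which WRKY53 is best known, had 4 tested members of 28. The median genotype log2 difference was -0.01. SAG29, a sugar transporter of ageing leaves, read 126 and 173 on wild type 1b and 2 and 73.2 and 284 on 35S:miR396 1 and 2. It was higher on the arrays numbered 2 by 1.01 ± 0.43 (half-width of the 95% interval, limma adjusted p = 0.00158). That difference was 0.49 in wild type and 1.53 in 35S:miR396, both outside the interval, so the half-width understates the spread. The genotype log2 ratio of SAG29 was -0.51 in number 1 and 0.53 in number 2. SAG101, a lipase-like regulator of immunity, had a genotype log2 difference of -0.21. WRKY6 and WRKY22 were the others. Over all 6 lists together, 24 genes other than the 5 were tested. Between the numbers 6 were higher and 2 lower, where 10.7% and 11.6% of all probe sets were, so the lower calls are near the share over all. Between the genotypes 0 were called and 0 had an unadjusted p under 0.05, as against 0 and 103 of all 15922. Without a variance trend 7 of these 8 calls were lost, ORA47 being the exception.

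The genes whose pattern over the 4 arrays was most like that of the 5 were AT3G16670, AT5G49320, AT2G22600, AT5G38100 and AT1G33660. Likeness was the root mean square distance between centred log2 profiles, each with its own mean removed, from the mean profile of the 5 genes over the 4 arrays. The distances ran from 0.21 to 0.41, against a median of 0.94 over 8629 genes. These are the smallest distances by selection, so lying under the median was fixed in advance and is no sign of shared regulation. The mean profile itself comes from genes picked on these same signals. AT3G16670 read 154 and 274 on wild type 1b and 2 and 467 and 746 on 35S:miR396 1 and 2, with log2 ratios of 1.87 and 1.26 in numbers 1 and 2. It was also the nearest gene to ATL63 (0.19) and to AT1G12630 (0.19), followed for ATL63 by AT5G49320 and for AT1G12630 by AT3G28960. AT5G49320, which read 14.7 and 30.9 against 36.5 and 51.2, was nearest to WRKY53 (0.43), CML23 (0.29) and AT3G10930 (0.17). The next nearest were AT3G16670 to WRKY53 and AT2G22600 to CML23 and AT3G10930. Of the genes nearest to the mean profile, all but AT3G16670 were dim on wild type 1b. AT5G49320 read 14.7 there, AT2G22600 9.2, AT5G38100 9.8 and AT1G33660 14.4, so their ratios are imprecise. Among the 5 genes themselves CML23 and AT3G10930 were closest (0.21), and WRKY53 and AT1G12630 farthest apart (0.55).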

How the data were processed

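The authors deposited 1 linear intensity per probe set and array, computed with MAS5 (submitters' processing notes), which subtracts background and summarises the probes of a set. The version, scaling target and detection calls of MAS5 are not given in the sources used here. Of 22810 probe sets, 64 controls were left out, and 6 of the remaining values at or under 0 were set to 0.1. Log2 signals were centred on each array's median. Probe sets with 1 gene in the platform annotation (13513, of which 13436 matched RefSeq TAIR10.1 by gene ID) were named, and 503 with several genes and 8730 with none were not. Where a gene had more than 1 of them, the brightest was used. No coordinates and no sequences are printed, and promoter and protein features were not analysed here.

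Testing was limited to the 15922 probe sets above the lowest 30% of mean log2 signals, all 5 genes among them. The genotype comparison used limma 3.58.1 in R 4.3.3 (eBayes with a trend, two-sided, Benjamini-Hochberg, threshold 0.05) with no replicate-number term, and the number comparison had the genotype as a term, 1b being taken as 1. An exact permutation test of 2 against 2 arrays could not pass 0.05. The number of arrays limits the precision: the median half-width of the 95% interval was 0.63 for a genotype and 0.33 for a number log2 difference. The scripts were tested on simulated data. Python 3.11.15, pandas 2.3.3, numpy 2.4.6 and matplotlib 3.10.9 were used.

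The 5 genes and the lists were chosen with earlier results of these data known. List genes were named by a rule: the up to 4 tested genes of highest mean level per list, plus those called where they were 5 or fewer. PUB22, PUB23 and PUB24 fall outside it and were named after their values were seen, to account for all 10 tested genes of the early stimulus list. The same holds for tny and TINY2, named to account for all tested AP2/ERF genes. WRKY, calmodulin-like, ATL and AP2/ERF family lists came from RefSeq symbols and synonyms. Alternatives were the signals as deposited, quantile normalization, trimmed-mean scaling, other filters, pseudocounts, other variance models, each array left out and the replicate number as a block.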

Additional observations from a re-analysis of the deposited data

How the results depend on the processing

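Each of the 5 genes kept a positive genotype difference under the 10 alternatives tried. Several of these could not have changed the sign. With 1 array left out it was fixed by the separation of the groups, and the replicate block leaves the difference itself unchanged. On the signals as deposited, too, both 35S:miR396 arrays lay above both wild-type arrays for each gene. The other alternatives rescale the same separated signals, so the kept sign is no sign of stability. With 12.8, the 25th percentile of all signals, added as a pseudocount the log2 difference of ATL63 was 1.01 and that of AT1G12630 1.17. Without 1 array the differences ran from 0.67 to 2.49 for WRKY53, 0.53 to 2.22 for CML23, 1.09 to 2.26 for ATL63, 0.40 to 1.93 for AT3G10930 and 1.60 to 2.22 for AT1G12630. When the lowest 60% of mean levels were dropped, 0 of the 5 genes were tested. Genotype calls numbered 18 with the replicate number as a block (5 higher, 13 lower), with 0 of the 5 genes among them, and 0 with the block and quantile normalization, an alternative chosen after seeing the data. The labels do not state that the number pairs the arrays. Across probe sets, deviations from the genotype means correlated at 0.63 (Pearson) between wild type 1b and 35S:miR396 1. Every other setting gave 0 genotype calls, and 33 to 440 probe sets at an unadjusted p under 0.05. The 6 lists had 0 genotype calls in each of 15 settings, the block included. Number calls went from 3553 to 888 on the signals as deposited and to 375 without a trend. The number comparison could not be fitted with 1 array left out, since no residual degrees of freedom remain. STZ was also not called between the numbers with robust fitting, and WRKY22 not after quantile normalization or trimmed-mean scaling, nor WRKY6 without a filter or without the genotype term. The cause was not tested. Dim signals limit ATL63 and AT1G12630 most.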

Other observations

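The protein-coding genes that flank the 5 loci in RefSeq order did not share their pattern where they had a probe set of their own, which was so for 4 of 10. They were chosen after the values of the 5 genes were seen, and none was tested for a difference from them. Beside WRKY53, 3xHMG-box2 had genotype log2 ratios of 0.05 and -0.68 in numbers 1 and 2, and AT4G23820 of 0.20 and -0.40. AT5G58575, beside ATL63, had ratios of 0.20 and 0.31. AT1G12620, beside AT1G12630, had ratios of -0.47 and 0.46, and read 23.5 and 11.8 on wild type 1b and 2 and 14.1 and 18.5 on 35S:miR396 1 and 2. The flanking genes of CML23 and AT3G10930 were not read here.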
